A study of Bos taurus with 26 samples.

Results

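Among 24616 bovine gene IDs counted in corpus luteum and endometrium of Holstein cows, 100 were selected because every corpus luteum library of the high-fertility line (Fert+) lay above every library of the low-fertility line (Fert-), with the widest gap between the lines. Messenger RNA had been sequenced on day 13 of the oestrous cycle from biopsies of corpus luteum, 7 libraries of Fert+ and 5 of Fert- cows, and of the uterine horn on the same side, 8 libraries of Fert+ and 6 of Fert- cows. Fert+ and Fert- were the genotypes given in the labels, with no treatment, and all 26 libraries shared the day of the cycle. The Fert+ corpus luteum libraries carried the numbers 15, 16, 18, 19, 21, 23 and 24, and the Fert- ones the numbers 17, 20, 25, 27 and 28. The labels also gave a batch from 1 to 4 and a parity from 2 to 4. Corpus luteum batch 4 held Fert+ libraries 15 and 18 alone, and the batch 1 libraries were of parity 2 in Fert+ (2 libraries) and parity 4 in Fert- (2 libraries). Whether every library is from its own cow is not stated in the labels, so errors and p-values measure the spread of these libraries, which may be technical. Nor is it stated whether one cow gave both tissues, so the endometrium is a separate set of libraries but perhaps not of animals.

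The corpus luteum is the gland that forms from the ovulated follicle and secretes progesterone. Progesterone acts on the endometrium, the lining of the uterus, and prepares it to receive an embryo; in the absence of pregnancy, prostaglandin from the endometrium later ends the life of the corpus luteum. Large and small steroidogenic cells, endothelial cells, fibroblasts and immune cells make up the gland, and in bulk tissue a lower level from fewer cells of a type and one from less RNA per cell cannot be told apart. The IDs were deposited without gene symbols, and 0 of the 24616 matched the RefSeq gene table used here. The 100 IDs are therefore described by their values, no role or sequence is given for any of them, and the labelled tissues were not checked against marker genes.

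The IDs were selected on v = log2(CPM + 1), where CPM is the library's count of an ID divided by the library's total and scaled to a sum of 1000000, in the corpus luteum libraries. An ID was eligible with a mean of at least 5 CPM in corpus luteum and a corpus luteum mean under 20 times the endometrial mean, which 10568 IDs met. In 289 of these (2.73%) the lowest Fert+ corpus luteum library lay above the highest Fert- one, and the 100 with the largest gap were taken. In 30 eligible IDs (0.284%) every Fert- library lay above every Fert+ library. The gap ranged from 0.07 to 0.39 on the log2 scale in the 100 IDs, with a median of 0.11. At the limit, the last ID taken, rank 100, had a gap of 0.0730, with its lowest Fert+ library (23) at 191.7 CPM and its highest Fert- library (25) at 182.2 CPM. The first ID left out, rank 101, had a gap of 0.0725, with its lowest Fert+ library (21) at 7.36 CPM and its highest Fert- library (17) at 6.95 CPM.

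The number of separated IDs depended on how library size was set. With library sizes scaled by the trimmed mean of M values (TMM), which sets aside IDs of extreme ratio or abundance, 104 of 10550 eligible IDs (0.986%) had every Fert+ library above every Fert- library and 141 (1.34%) the reverse, against 289 and 30 with library totals. With relative log expression (RLE) scaling the numbers were 75 (0.711%) and 186 (1.76%). Over all 10568 eligible IDs, the median difference between the lines was 0.19 (log2) with library totals and 0.01 with TMM. The TMM factors were 0.976 to 1.15 in Fert+ and 0.877 to 1.00 in Fert- corpus luteum, and CPM from library totals are lower than TMM-scaled CPM where the factor is below 1. The number also changed when single libraries were left out. Apart from the limits on mean CPM and tissue ratio, it could only rise, since fewer libraries had to be separated. It rose to 1032 without Fert+ library 23, 1094 without Fert- library 20 and 473 without Fert- library 27. Without Fert+ libraries 15, 16, 18 and 19, 391 IDs were separated, among them 91 of the 100. The rest of the 100 fell under the mean of 5 CPM, since leaving out libraries can narrow no gap. These 4 libraries stand apart from the rest of the corpus luteum libraries: they had counts for 17014 to 17325 IDs, against 15935 to 16609 IDs in the other 8. No label defines them, and they were listed as a group with earlier results of these data known. Comparisons of these 4 with the other Fert+ libraries below are therefore a description, not an independent result.

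Of the 100 IDs, 50 were separated with TMM scaling as well. Those 50 differed between the lines by a median of 0.74 (log2) with library totals and 0.56 with TMM. The 50 whose lines overlapped with TMM differed by a median of 0.51 with library totals and 0.32 with TMM. In all 100 the Fert+ mean stayed above the Fert- mean with TMM, by 0.07 to 1.98. Relative to the median eligible ID, the median of the 100 was higher by 0.39 with library totals and by 0.40 with TMM. An excess follows from the selection on these libraries. Scaling moves all IDs of a library nearly alike, so the likeness of the 2 values is not a test either.

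**Figure D1:**
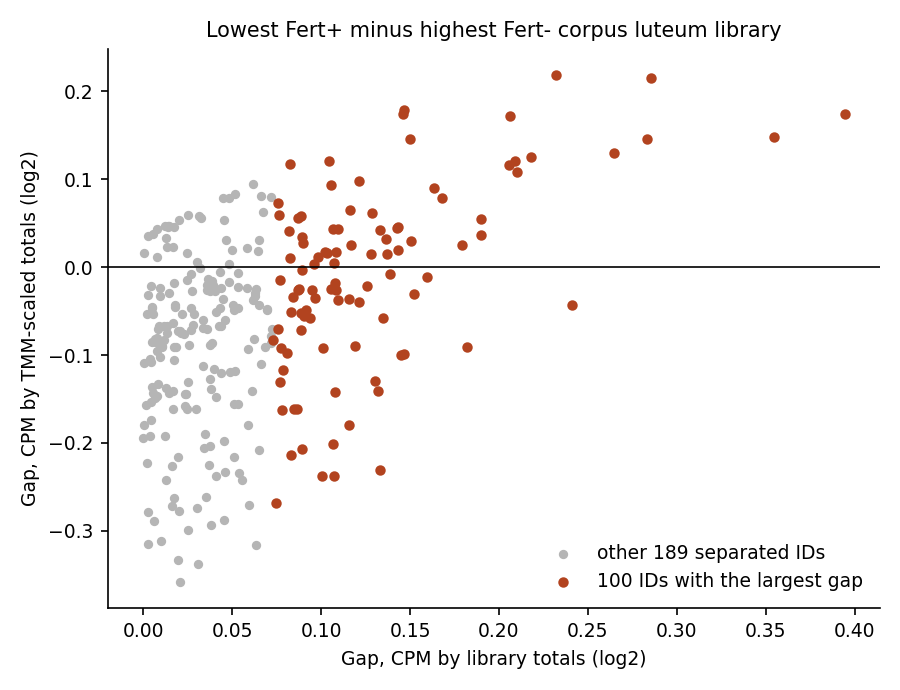
Gap between the lowest Fert+ and the highest Fert- corpus luteum library (log2(CPM + 1)) for the 289 separated IDs, with library totals on the x axis and TMM-scaled totals on the y axis. Points above the line at 0 are still separated with TMM: 50 of the 100 selected IDs (red) and 33 of the other 189 (grey).

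The corpus luteum values below were used for the selection and are given as a description, without a test. The 100 IDs were of middling abundance, with a corpus luteum mean of 5.07 to 387 CPM and a median of 19.4 CPM, against a median of 27.2 CPM over all eligible IDs. The Fert+ minus Fert- difference of mean v ranged from 0.25 to 2.15, with a median of 0.59. It was above 1 in 10 of the IDs and below 0.5 in 32. In corpus luteum the 100 IDs together took 0.473% ± 0.0488 of the counts in Fert+ (SD, n = 7), against 0.309% ± 0.0216 in Fert- (SD, n = 5).

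At the border between the lines, the counts of single libraries were close in most of the IDs. The lowest Fert+ library held 53 to 6928 reads per ID with a median of 241.5, and the highest Fert- library 59 to 6241 reads with a median of 246.5. Exact 95% Poisson intervals of these 2 libraries, which cover counting error only, did not overlap in 5 of the 100 IDs and overlapped in 95. The share was not counted over the other separated IDs, so it is not a result about the 100. Lack of overlap of separate intervals is a stricter demand than a difference beyond counting error, so overlap does not show that the 2 libraries were alike.

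ENSBTAG00000021283 had the widest gap. It lay at 11.9 CPM in the lowest, 13.0 CPM in the median and 24.2 CPM in the highest of 7 Fert+ corpus luteum libraries, against 6.88, 7.23, 8.09, 6.25 and 8.81 CPM in Fert- libraries 17, 20, 25, 27 and 28. Fert+ libraries 15 and 24, at 24.2 and 21.7 CPM, were the high ones, and the other 5 Fert+ libraries lay between 11.9 and 14.5 CPM. The mean was 15.8 CPM ± 5.03 in Fert+ (SD, n = 7), against 7.45 CPM ± 1.01 in Fert- (SD, n = 5), a difference of 0.95 (log2), or 0.77 with TMM. The border was set by 151 reads in Fert+ library 19 (95% interval 10.1 to 13.9 CPM) and 105 reads in Fert- library 28 (7.20 to 10.7 CPM). This ID was rare in endometrium, at 0.840 CPM ± 0.321 in Fert+ (SD, n = 8), against 1.41 CPM ± 0.697 in Fert- (SD, n = 6).

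ENSBTAG00000001387 had the second widest gap and the more even values. It lay at 12.5 CPM in the lowest, 13.4 CPM in the median and 16.5 CPM in the highest Fert+ corpus luteum library, against 9.05, 9.50, 8.37, 9.54 and 9.31 CPM in Fert- libraries 17, 20, 25, 27 and 28. Apart from library 19 at 16.5 CPM, the Fert+ libraries spanned 12.5 to 13.6 CPM. The difference between the lines was 0.53 (log2), or 0.36 with TMM, with which it was still separated. In endometrium it was more abundant, at 19.5 CPM ± 1.46 in Fert+ (SD, n = 8), against 20.96 CPM ± 1.91 in Fert- (SD, n = 6).

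**Figure D2:**
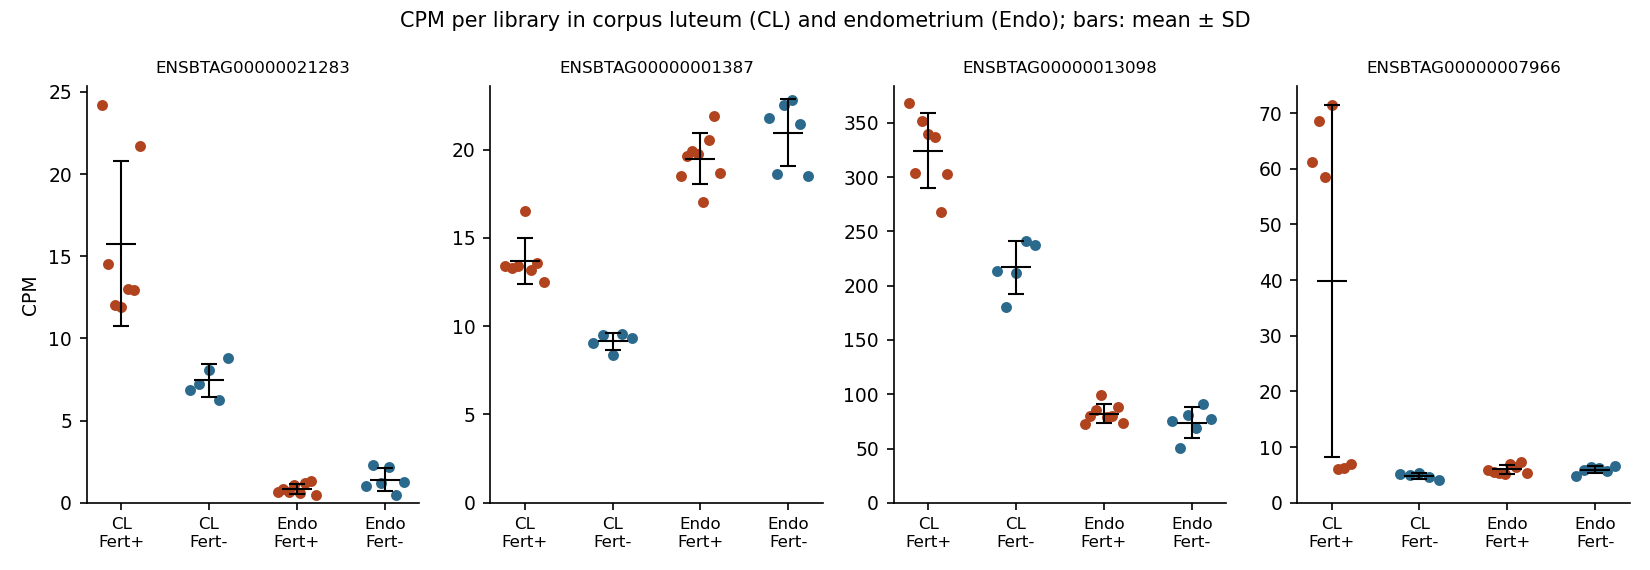
CPM per library (points) with mean ± SD for 4 of the IDs in corpus luteum (CL) and endometrium (Endo), Fert+ in red and Fert- in blue. The corpus luteum lines do not overlap, as selected, while the endometrial lines overlap in each panel; in ENSBTAG00000007966 the Fert+ corpus luteum libraries fall at 58.5 CPM or more and at 6.95 CPM or less.

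The Fert+ libraries were not alike across the 100 IDs. Taking each ID's deviation from its corpus luteum mean, the median over the IDs was 0.40, 0.33, 0.35 and 0.38 (log2) in Fert+ libraries 15, 16, 18 and 19. In Fert+ libraries 21, 23 and 24 it was 0.10, 0.01 and 0.08. In Fert- libraries 17, 20, 25, 27 and 28 it was -0.54, -0.20, -0.31, -0.31 and -0.39. Libraries 21, 23 and 24 thus stood between the other Fert+ libraries and the Fert- libraries. The same deviation over all eligible IDs was 0.10 to 0.18 in Fert+ libraries 15, 16, 18 and 19, -0.02 to -0.0043 in the other Fert+ libraries and -0.18 to 0.02 in Fert- libraries, so part of this order was common to the eligible IDs.

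**Figure D3:**
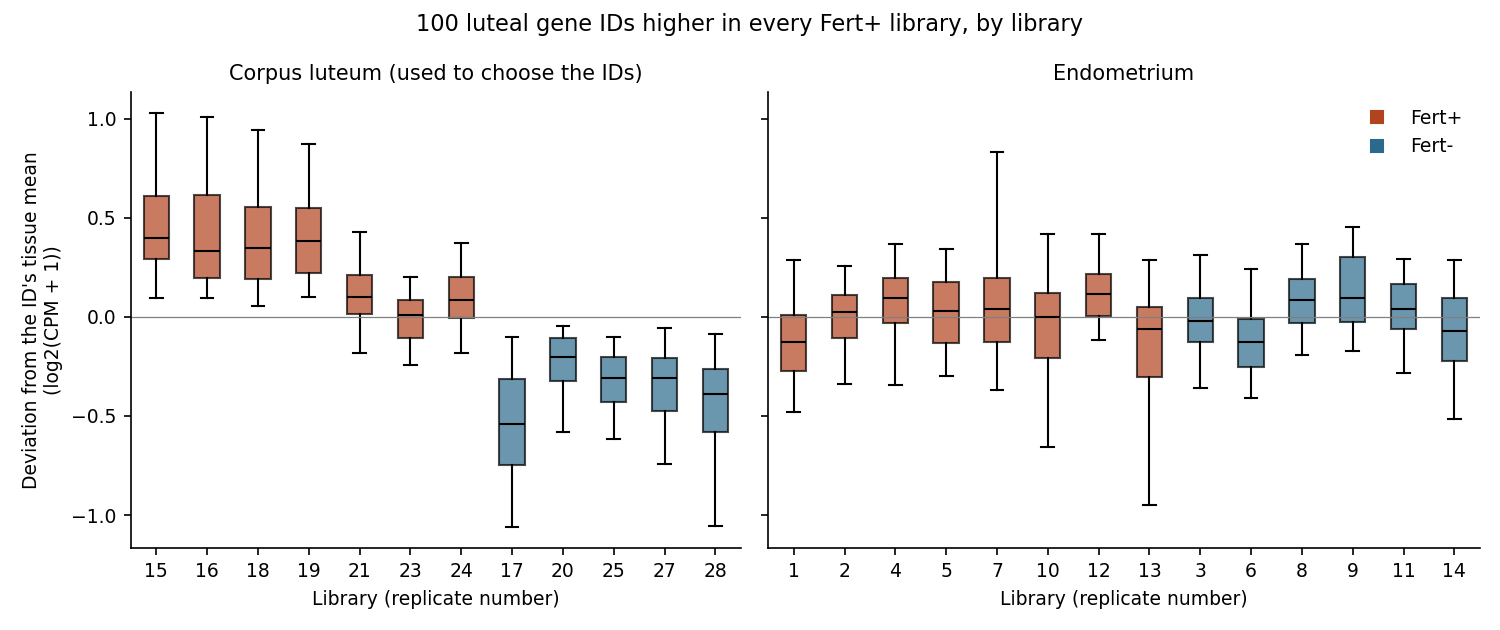
Deviation of each of the 100 IDs from its own tissue mean (log2(CPM + 1)) by library, Fert+ in red and Fert- in blue; boxes span the quartiles, the line is the median and whiskers reach the 5th and 95th percentiles. In corpus luteum, which chose the IDs, Fert+ medians lie between 0.01 and 0.40 and Fert- medians between -0.54 and -0.20; in endometrium both lines scatter around 0.

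A few libraries lay at the border in most IDs. Fert+ library 23 was the lowest Fert+ library in 46 of the 100 IDs, library 24 in 25 and library 21 in 13. Fert- library 20 was the highest Fert- library in 45. The highest Fert+ library was one of 15, 16, 18 and 19 in 92. Fert- library 20 also had the highest TMM factor of its line (1.00) and Fert+ library 24 the lowest of its own (0.976); the part of library composition in the order of single libraries was not tested.

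Fert+ libraries 15, 16, 18 and 19 all lay above libraries 21, 23 and 24 in 51 of the 100 IDs, against 30.9% of the eligible IDs. With TMM this held in 32 of the 100, against 21.3% of the eligible IDs. The difference between these sets of Fert+ libraries had a median of 0.26 (log2) over the 100 IDs, against 0.10 over the eligible IDs, and with TMM of 0.09 against -0.08. The difference between Fert+ libraries 21, 23 and 24 and the Fert- libraries had a median of 0.42, against 0.10 over the eligible IDs, and of 0.35 with TMM. In 65 of the 100 IDs the step from Fert- to Fert+ libraries 21, 23 and 24 was larger than the further step to libraries 15, 16, 18 and 19, and in 35 it was smaller. In 23 IDs the Fert+ sets differed by less than 0.1 in either direction. The selection requires the step from Fert- to be above 0, and these counts were not made over the eligible IDs.

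ENSBTAG00000007966, singled out after its values were seen because it had the largest line difference (2.15), was the most uneven. It lay at 61.1, 68.5, 58.5 and 71.5 CPM in Fert+ libraries 15, 16, 18 and 19 and at 6.04, 6.32 and 6.95 CPM in Fert+ libraries 21, 23 and 24, against 5.08, 4.96, 5.39, 4.61 and 4.11 CPM in Fert- libraries 17, 20, 25, 27 and 28. Most of its line difference thus came from 4 Fert+ libraries. They exceeded the other 3 by 3.15 (log2), while those 3 exceeded Fert- by 0.35. With TMM the lines of this ID overlapped by a narrow margin (gap -0.0076, log2). In endometrium it averaged 6.01 CPM ± 0.843 in Fert+ (SD, n = 8), against 5.92 CPM ± 0.642 in Fert- (SD, n = 6), close to the low corpus luteum libraries.

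ENSBTAG00000016355, also singled out after its values were seen, had the reverse order of means inside Fert+, though library 23 lay below libraries 15 and 16. It lay at 72.6, 68.0, 59.8 and 61.0 CPM in Fert+ libraries 15, 16, 18 and 19 and at 111.3, 63.6 and 83.1 CPM in Fert+ libraries 21, 23 and 24, against 20.1, 50.4, 50.01, 53.9 and 14.7 CPM in Fert- libraries 17, 20, 25, 27 and 28. Fert- libraries 17 and 28 were the low ones, and the other 3 Fert- libraries came within 10 CPM of the lowest Fert+ library. With TMM the lines of this ID overlapped (gap -0.10, log2). Libraries 15, 16, 18 and 19 had the lower mean of v in 8 of the 100 IDs, and in 39 with TMM. Over the eligible IDs their median difference from libraries 21, 23 and 24 was 0.10 (log2) with library totals and -0.08 with TMM. A lower mean was thus common among eligible IDs with TMM, though its share was not counted.

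**Figure D4:**
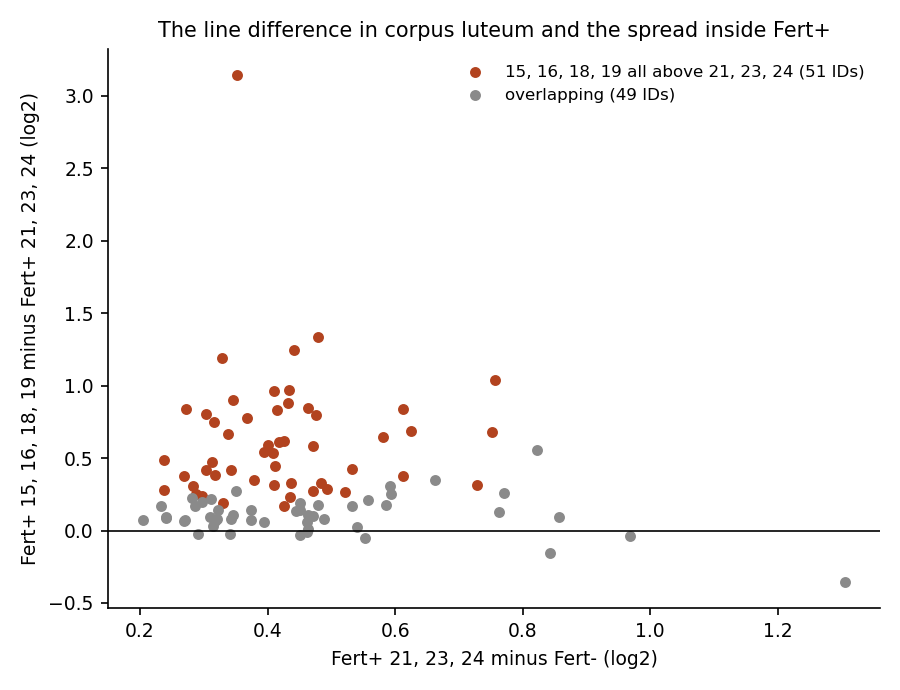
For each of the 100 IDs, mean difference between Fert+ libraries 21, 23 and 24 and the Fert- libraries (x axis, log2) against the further difference between Fert+ libraries 15, 16, 18 and 19 and libraries 21, 23 and 24 (y axis, log2). In red are the 51 IDs in which the 4 libraries all lie above the 3; the point at 3.15 is ENSBTAG00000007966 and the point at -0.36 is ENSBTAG00000016355.

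Within batches the size of the line difference varied, while its sign was fixed by the selection. The median over the 100 IDs was 0.40 in batch 1 (2 Fert+ and 2 Fert- libraries), 0.93 in batch 2 (1 library of each line) and 0.49 in batch 3 (2 and 2), against medians over the eligible IDs of 0.05, 0.30 and 0.21. Within parity 3 (3 Fert+ and 2 Fert- libraries) it was 0.66 and within parity 4 (2 and 3) it was 0.57, against 0.27 and 0.14.

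Endometrium by line was a comparison that the selection did not use, since it took from endometrium the mean over all libraries only. It asked whether the same IDs differ between the lines in the other tissue. All 100 IDs passed the low-count filter there. No line difference was called: 0 of the 100 passed an adjusted p under 0.05 in the edgeR quasi-likelihood test with batch in the model, where 0 of 14243 tested IDs did (0.00%), and the lowest adjusted p among the 100 was 0.981. At an unadjusted p under 0.05 there were 0 of the 100, against 428 of all tested IDs (3.00%). DESeq2 also called 0 of the 100, where it called 8 of all tested IDs (0.0562%), and limma-voom 0 of the 100, where it called 0 of all tested IDs (0.00%). At an unadjusted p under 0.05 both tools had 0 of the 100, against 3.97% of all tested IDs with DESeq2 and 3.67% with limma-voom. The unadjusted edgeR count was 5 of the 100 without Fert+ library 10, against 6.26% of all IDs tested in that fit. It was 2 without Fert- library 11 or 14, against 2.81% and 1.80% of all IDs, and 1 without Fert- library 8, Fert- library 9 or Fert+ library 12, against 3.01%, 3.61% and 4.12%.

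The endometrial differences were small. The median absolute log2 fold change (Fert+ over Fert-) of the 100 IDs was 0.08, with a median standard error (SE) of 0.13. The fold change was above 0 in 65 and below 0 in 35 of the 100, against 50.5% of all tested IDs above 0. Its median was 0.04 over the 100 IDs and 0.00 over all tested IDs. As a plain difference of mean v, with library totals, no batch term and the eligible IDs as background, Fert+ was higher in 51 and lower in 49 of the 100, against 41.5% of the eligible IDs higher. With the batch term alone left out, the edgeR fold change was above 0 in 65 of the 100, against 7196 of 14243 tested IDs. The library totals, the difference of mean v and the eligible IDs as background were not changed one at a time. In 0 of the 100 IDs did the endometrial lines lie apart in either direction, against 1 eligible ID each way (0.00946%). The 100 IDs took 0.394% ± 0.0240 of the endometrial counts in Fert+ (SD, n = 8), against 0.394% ± 0.0261 in Fert- (SD, n = 6). These shares lay between those of Fert+ and Fert- corpus luteum.

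**Figure D5:**
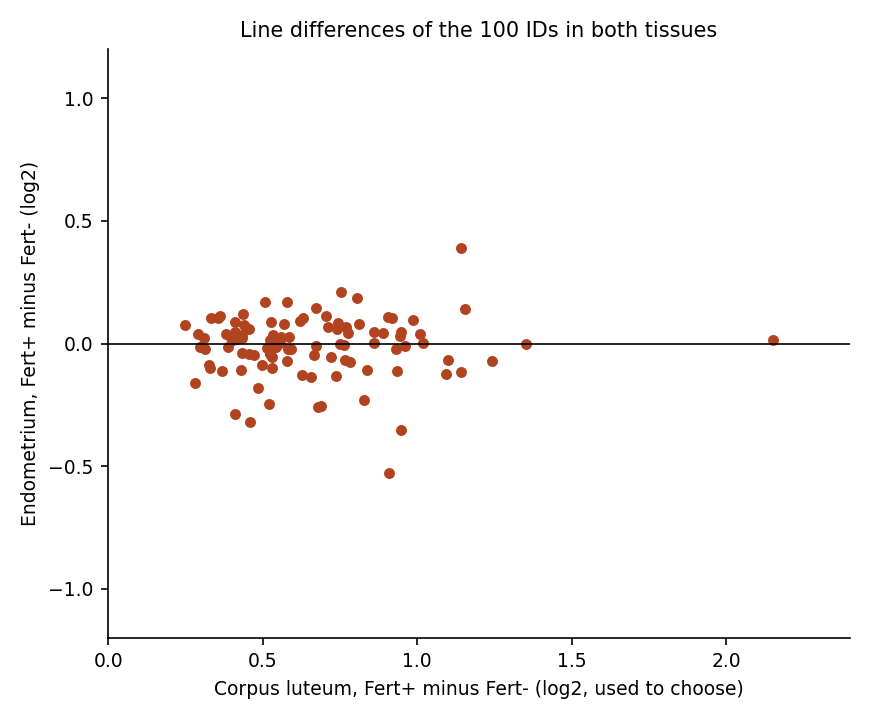
Fert+ minus Fert- difference of mean log2(CPM + 1) of the 100 IDs in corpus luteum (x axis, used to choose them and so above 0) and in endometrium (y axis). The endometrial differences lie between -0.53 and 0.39, with 51 above and 49 below 0.

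The IDs with the smallest p in endometrium are given as values, since none passed. ENSBTAG00000012830 lay at 17.1 CPM in the lowest, 19.2 CPM in the median and 23.9 CPM in the highest Fert+ endometrium library, against 16.3, 18.3 and 20.98 CPM in Fert-. The lines overlapped over most of their range (log2 fold change 0.16, SE 0.07, edgeR adjusted p = 0.981). In corpus luteum this ID was at 10.4 CPM ± 1.03 in Fert+ (SD, n = 7), against 7.89 CPM ± 0.832 in Fert- (SD, n = 5), and the lines overlapped with TMM. The endometrial level of ENSBTAG00000013098 was 82.2 CPM ± 8.49 in Fert+ (SD, n = 8), against 74.0 CPM ± 13.8 in Fert- (SD, n = 6; log2 fold change 0.19, SE 0.10, edgeR adjusted p = 0.981). In corpus luteum it lay at 267.7 to 368.1 CPM in Fert+ and 180.0 to 241.1 CPM in Fert- libraries, and it was one of the 5 IDs whose counting intervals lay apart at the border.

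In the other direction, ENSBTAG00000021283 had an endometrial log2 fold change of -0.69 (SE 0.37, edgeR adjusted p = 0.981), opposite in sign to its corpus luteum difference. Its Fert+ endometrium libraries spanned 0.457 to 1.34 CPM and its Fert- libraries 0.468 to 2.298 CPM, so the lines overlapped at a low level. ENSBTAG00000021537 in endometrium was at 3.37 CPM ± 1.01 in Fert+ (SD, n = 8), against 4.36 CPM ± 0.573 in Fert- (SD, n = 6; log2 fold change -0.34, SE 0.20, edgeR adjusted p = 0.981). In corpus luteum it was at 8.74 CPM ± 1.37 in Fert+ (SD, n = 7), against 6.07 CPM ± 0.878 in Fert- (SD, n = 5). A difference of the line effect between tissues was not tested, because the corpus luteum contrast chose the IDs.

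Most of the 100 IDs were expressed at similar levels in both tissues. The ratio of the corpus luteum mean to the endometrial mean, which the selection kept under 20, had a median of 0.857, against 0.830 over the eligible IDs. It was between 0.5 and 2 in 78 IDs, above 2 in 13 and below 0.5 in 9. The corpus luteum mean was the higher one in 37 of the 100, against 35.4% of the eligible IDs. The 100 IDs were thus close to the eligible IDs in their tissue ratio, and a ratio over 5 was found in 4 of them.

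The highest ratio, 12.6, belonged to ENSBTAG00000006538. In corpus luteum it averaged 143.0 CPM ± 13.2 in Fert+ (SD, n = 7), against 61.7, 112.0, 98.3, 104.9 and 33.9 CPM in Fert- libraries 17, 20, 25, 27 and 28. Its Fert+ libraries were even and Fert- libraries 17 and 28 were the low ones; the difference was 0.91 (log2), or 0.63 without Fert- library 28. In endometrium it lay between 1.92 and 10.7 CPM in the Fert+ libraries and between 2.58 and 5.28 CPM in 5 Fert- libraries, with Fert- library 14 at 72.7 CPM. The next highest ratio, 11.4, was that of ENSBTAG00000021283.

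The lowest ratio, 0.219, belonged to ENSBTAG00000016571, with an endometrial level of 315.8 CPM ± 79.4 in Fert+ (SD, n = 8), against 318.1 CPM ± 36.6 in Fert- (SD, n = 6). In corpus luteum it was at 78.1 CPM ± 10.4 in Fert+ (SD, n = 7), against 57.3 CPM ± 4.38 in Fert- (SD, n = 5). ENSBTAG00000019213 followed at 0.309, with a lowest, median and highest library of 17.7, 25.3 and 28.1 CPM in Fert+ endometrium, against 13.9, 25.5 and 29.5 CPM in Fert-. In corpus luteum it was at 8.02 CPM ± 0.725 in Fert+ (SD, n = 7), against 6.16 CPM ± 0.472 in Fert- (SD, n = 5). For both of these IDs the corpus luteum lines overlapped with TMM.

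The 100 IDs varied in endometrium about as much as other IDs. The SD within a line (log2) had a median of 0.24 over the 100 and 0.24 over the eligible IDs; in corpus luteum it was 0.22 and 0.26, where a small spread within each line helps an ID to be selected. Over the 4950 pairs of the 100 IDs, the correlation of deviations from the line means across 14 endometrium libraries had a median of 0.15, against 0.06 over pairs of eligible IDs. Across the 12 corpus luteum libraries it was 0.40, against 0.07. Pairs of eligible IDs come from the same libraries, with the same depth and composition. In corpus luteum the IDs were selected on these values, and the deviations still hold the differences among Fert+ libraries. The part of each in these correlations was not tested.

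Parity and batch were examined in endometrium, as contrasts that the selection did not use. They were largely the same split of the libraries. All parity 3 libraries were of batch 3 or 4, and all parity 4 libraries except Fert+ library 12 were of batch 1 or 2. The parity model held no batch and the batch model no parity, so effects of parity and batch cannot be told apart here. Between parity 4 and parity 3, edgeR with line in the model called 0 of the 100 IDs, where 0 of 14731 tested IDs passed (0.00%). At an unadjusted p under 0.05 there were 5 of the 100, all lower at parity 4, against 6.15% of tested IDs lower and 11.9% in either direction. Without Fert+ library 12 this count was 12 of the 100, against 14.2% of all IDs tested in that fit. It was 2 without Fert+ library 5, Fert- library 6 or Fert- library 11, against 12.8%, 9.67% and 10.8% of all IDs, and 3 without Fert+ library 4, Fert- library 9 or Fert- library 14, against 9.71%, 9.93% and 9.49%. The parity 4 over parity 3 fold change was below 0 in 65 of the 100, and 49.3% of all tested IDs were above 0. DESeq2 called 268 of all tested IDs for parity (1.82%), 0 of them among the 100. ENSBTAG00000019213, one of the 5, had a log2 fold change of -0.37 (SE 0.16, edgeR adjusted p = 0.378).

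For batch, edgeR called 0 of the 100 IDs, where 8 of 14243 tested IDs passed (0.0562%). At an unadjusted p under 0.05 there were 6 of the 100, against 13.2% of tested IDs, and 10 without Fert+ library 10, against 13.6%. DESeq2 called 2 of the 100 for batch, against 5.76% of tested IDs.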

How the data were processed

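The deposited files hold whole-number read counts per gene ID for 26 libraries, not normalised. Per the submitters' processing notes, CASAVA 1.9, FastQC 0.10.0, Trim Galore, STAR 2.3.0, featureCounts and the build UMD3.1 were used; how reads of several positions or of either strand were counted, and on which annotation release, is not given in the sources used here, which makes values of antisense, overlapping and closely related genes uncertain. The labels' protocols name a TruSeq kit, and whether the libraries mark strand was not checked. Totals were 11924906 to 18008417 counts in corpus luteum and 9627378 to 16580572 in endometrium. The lowest chi-square per degree of freedom among 74 pairs of libraries within a group was 16.5, so no library was counted as deposited in duplicate.

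IDs were selected on log2(CPM + 1) with CPM from library totals. The selection and the gene lists were chosen with earlier results of these data known. Endometrium was fitted alone in R 4.3.3 with edgeR 4.0.16 (filterByExpr, TMM, robust quasi-likelihood F test, two-sided). P-values were adjusted by Benjamini-Hochberg over all tested IDs, and an adjusted p under 0.05 was a call. Models held line with batch for the line and batch tests, and line with parity for the parity test. SE is the fold change divided by the root of F. DESeq2 1.42.0, limma 3.58.1 with voom, other scalings and filters, and leaving out libraries were alternatives. The scripts were tested on simulated data.

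IDs were named by a rule: the 2 with the widest gap, the 2 with the smallest endometrial p in each direction, and the 2 with the highest and the lowest tissue ratio. The text says where an ID was singled out later. Gene lists and cell type markers were not used because 0 IDs matched a symbol in the RefSeq table of assembly ARS-UCD2.0.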

Additional observations from a re-analysis of the deposited data

Results flagged for a closer look

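In 44 groups of values (named IDs, the share and median deviation of the 100 IDs, and library totals, each by tissue and line), the highest or lowest library was set against the range of its group. A wide gap to the next library was found in 4. Chance would give about 1 in 20 groups, or 2.2, for IDs chosen without regard to these values. The corpus luteum values were used for the selection, and some IDs were named for their endometrial values or tissue ratio. The 4 found therefore cannot be set against 2.2.

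ENSBTAG00000006538 stood out in both endometrial lines. Fert- endometrium library 14 was at 72.7 CPM, with the next Fert- library at 5.28 CPM, and Fert+ endometrium library 13 was at 10.7 CPM, with the next Fert+ library at 5.68 CPM. Without Fert- library 14, the endometrial log2 fold change of this ID was 0.16, against -1.01 (SE 0.70, edgeR adjusted p = 0.981) with all libraries.

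In Fert+ corpus luteum, library 19 was the highest for ENSBTAG00000001387, at 16.5 CPM with the next library at 13.6 CPM. The same library was the highest for ENSBTAG00000019213, at 9.60 CPM with the next library at 7.95 CPM. Library 19 is the only Fert+ corpus luteum library of batch 2.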

How the results depend on the processing

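The number of separated IDs in corpus luteum (289) was 104 with TMM and 75 with RLE scaling, and 292 to 1094 with one library left out. It stayed within 1.5 times of 289 with a mean of at least 1 or 10 CPM (333 and 240) and without the tissue ratio (291). The number was 300 without batch 4 and 391 without Fert+ libraries 15, 16, 18 and 19. Leaving out libraries can narrow no gap, and fewer libraries are more easily separated. Counts with libraries left out therefore cannot show that the number is stable. The median line difference of the 100 IDs (0.59) was 0.41 with TMM, 0.39 with RLE, 0.40 within batch 1, 0.93 within batch 2 and 0.42 without those 4 Fert+ libraries, and 0.57 to 0.64 with one library left out; the selection fixes its sign. In endometrium, 0 of the 100 IDs were called for line under every alternative run (other scaling, filters and covariates, DESeq2, limma-voom, an adjusted p under 0.10 and each library left out), and the median log2 fold change was 0.01 to 0.05 with one library left out. For parity the count was 0 under every alternative run; for batch it was 2 with DESeq2 and 0 under the other alternatives run. The causes of these changes were not tested.

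Of 278 recomputed values of the 8 IDs named by rule, 272 kept their direction. The 278 include corpus luteum differences with one library left out, whose sign the selection fixed. The count is therefore no measure of stability. The 6 exceptions were endometrial fold changes with one library left out: ENSBTAG00000006538 ranged from -1.28 to 0.16, and ENSBTAG00000016571 from -0.068 to 0.082. The filter at a mean of 5 CPM in endometrium and the values within parity were alternatives added after seeing the data. No paired analysis was possible because the Fert+ and Fert- libraries share no replicate number within a tissue, and the labels do not tie libraries of the 2 tissues to one cow. At 11924906 to 18008417 counts per corpus luteum library, the counting intervals of the 2 libraries at the border overlapped in 95 of the 100 IDs. This was not counted over the other separated IDs.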
